A study of Mus musculus with 10 samples.

Results

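The data described here are the transcript counts of 8 genes that are read as marks of an epithelial or a mesenchymal state, *Cdh1*, *Cdh2*, *Epcam*, *Vim*, *Snai2*, *Zeb1*, *Zeb2* and *Ncam1*, in single cells of the embryonic mouse pancreas. They were followed from ductal-like cells through Neurog3-high-like, early Fev-like and late Fev-like cells to alpha-like and beta-like cells, with mesenchymal-like cells as the reference. The genes were chosen by name, and all 8 were present among the 27716 genes that every matrix listed. None of the 8 was used to sort cells into classes.

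Endocrine cells of the pancreas arise in the epithelium of the ducts, where a pulse of Neurog3, a basic helix-loop-helix transcription factor, commits a cell to the endocrine fate. Committed cells then leave the epithelium and gather into islets, a step called delamination. In a complete epithelial-mesenchymal transition (EMT), factors of the Snail and Zeb families bind short E-box sequences and lower *Cdh1* (E-cadherin, the adhesion protein of adherens junctions) and other epithelial genes, while *Vim* (vimentin, an intermediate filament protein) and *Cdh2* (N-cadherin) come up. A partial transition keeps epithelial adhesion while some mesenchymal genes come up. *Epcam* encodes an adhesion protein of simple epithelia, and *Ncam1* encodes a neural cell adhesion molecule that endocrine and neuronal cells also carry.

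By the GENCODE M21 annotation of GRCm38 (mm10), *Cdh1* lies at chr8:106603351-106670246 on the plus strand, *Epcam* at chr17:87635979-87651129 on the plus strand and *Vim* at chr2:13573927-13582826 on the plus strand. *Snai2* lies at chr16:14705852-14709385 on the plus strand, *Zeb2* at chr2:44983632-45117395 on the minus strand and *Ncam1* at chr9:49502136-49798925 on the minus strand. All 8 are protein-coding genes. The 250 bases before the start of *Epcam* are shown because they hold the E-box CACCTG, the sequence that Snail and Zeb proteins bind, or CAGGTG, the same site read on the other strand (capitals, 2 matches). They are chr17:87635729-87635978 on the plus strand of GRCm38.p6, from RefSeq.
Epcam promoter: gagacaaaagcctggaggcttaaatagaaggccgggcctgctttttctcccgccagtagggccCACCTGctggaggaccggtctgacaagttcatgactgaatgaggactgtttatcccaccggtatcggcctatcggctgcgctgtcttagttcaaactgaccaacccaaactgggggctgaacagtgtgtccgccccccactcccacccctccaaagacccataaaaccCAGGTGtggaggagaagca
Of 32851 RefSeq promoter windows of this length, 17.2% held the site at least once and 2.06% held it at least 2 times. The windows of *Vim* and *Zeb2* held it 0 times, and promoter sequence was at hand for 3 of the 8 genes. A match describes the letters of the window and is no evidence of binding.

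Cells came from pools of whole pancreata. Version 1 libraries of Swiss Webster embryos were made at E12.5 (18 pancreata of 2 litters), at E14.5 in batch 1 (14) and batch 2 (11) and at E17.5 (8), from live cells. The version 1 E12.5 and E17.5 libraries also belonged to batch 2, which was collected on another day than batch 1. The stage fits below held no term for this batch. Version 2 libraries of Swiss Webster embryos, 1 of 14 pancreata at E12.5, 1 of 13 at E14.5 and 1 of 13 at E17.5 (loaded in 2 wells that were summed), were sorted against CD140a, which takes out many mesenchymal cells. The remaining library, at E14.5, came from 3 pancreata of Fev-Cre;ROSA26mTmG embryos, in which Cre under the control of *Fev* switches a membrane TdTomato reporter to GFP. Its GFP-positive cells and GFP-negative TdTomato-positive cells were both loaded. No group carried any other allele or treatment. Digestion lasted 10 min at E12.5, 15 min at E14.5 and 30 min at E17.5, so stage, litter and digestion cannot be told apart.

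Of 66017 barcodes, 57982 were kept as cells. The wells held 15671934 to 127151679 UMIs (unique molecular identifiers, each 1 captured transcript), with a median of 2952 to 11783 per kept cell. Haemoglobin made up 0.0128% to 60.9% of the UMIs of a well, highest in the E17.5 libraries, and pairs of wells shared 0.433% to 1.79% of the barcodes of the smaller well. The classes held 5252 ductal-like, 738 Neurog3-high-like, 521 early Fev-like, 1183 late Fev-like, 1709 alpha-like, 1638 beta-like and 16196 mesenchymal-like cells. The classes were named by marker genes, so the levels of those genes are a description. *Neurog3* had a median of 4573 CPM (UMIs per 1000000 UMIs of the class) in Neurog3-high-like cells, the endocrine factor *Pax4* 615 CPM in early Fev-like cells, and the granule protein gene *Chgb* 11613 CPM in late Fev-like cells, beside 903 CPM of *Fev*. Over the 7 libraries *Fev* ran from 123 to 2125 CPM in late Fev-like cells, so this class was uneven. Another of its markers, *Tph1*, was at 0 to 7.51 CPM there (median 1.24). *Mafa*, a factor of mature beta cells, had a median of 0 CPM in beta-like cells. The insulin gene *Ins1* ran from 650 over 17620 to 140180 CPM there (7 libraries). Of the 532 beta-like cells of Fev-Cre, 330 came from a cluster with 0 beta markers among its 10 leading genes. Beta-like cells are thus not all shown to be hormone cells. Among others, the late Fev-like clusters of Fev-Cre (373 and 234 cells) and version 2 E17.5 (164 cells) also had 0 own markers among their 10 leading genes. So did alpha-like clusters of Fev-Cre (296 cells) and version 2 E17.5 (111 cells).

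UMIs were summed per library and class, and a library entered a class with at least 20 cells. Classes of the same library were compared by edgeR's quasi-likelihood test with the library as a block. Differences below are log2 fold changes of that fit ± SE, with p-values adjusted by the Benjamini-Hochberg method over all genes tested, and a call needs an adjusted p under 0.05. A gene was counted as higher or lower in a library on the scale of log2(CPM + 10). CPM divides by totals that include hormone transcripts. These reached 253270 CPM for *Ins2* in beta-like and 97591 CPM for *Gcg* in alpha-like cells. The CPM of other genes is lowered by that share in these classes, by an amount that differs between libraries. Each library is a pool, so n counts pools. Neighbouring comparisons share a class, so that 1 unusual set of cells can move both.

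Between Neurog3-high-like and ductal-like cells (6 libraries), 3 of the 8 genes passed the filter on low counts and 3 were called lower, where 24.4% of 8121 genes were called higher, 26.4% lower and 50.8% at all. *Cdh1* was 1 of them. Its level in ductal-like cells ran from 61.9 CPM over a median of 142 to 212 (8 libraries), and in Neurog3-high-like cells from 0 over 39.0 to 45.3. These ranges did not overlap. The fitted difference was −1.92 ± 0.22 (adjusted p = 7.165e-06), or 0.265-fold, and *Cdh1* was lower in 6 of 6 libraries. With classes cut by gates on single genes (*Neurog3*, *Fev*, *Pax4*, *Chgb* and hormone genes) in place of clusters it was still called, but at −0.70. The library at 0 was version 1 E14.5 batch 2, whose 36 Neurog3-high-like cells could hide a level of up to 19.3 CPM (3 UMIs). Counting intervals and such floors cover counting error only.

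The early Fev-like cells had the lowest *Cdh1* of the epithelial classes, from 0 over 14.2 to 36.7 CPM in 6 libraries. The step from Neurog3-high-like cells was not called (−0.74 ± 0.35, adjusted p = 0.159, 5 libraries, 95% interval −1.43 to −0.05), but was in a fit over all epithelial classes (−0.91, adjusted p = 0.0485). The library at 0 here, version 1 E17.5, had 22 such cells and a floor of 54.1 CPM, so a level like that of its neighbours was not detectable at this depth. *Cdh1* then rose again. It was at 45.1, 64.2 and 87.3 CPM (lowest, median and highest of 7 libraries) in late Fev-like cells, all above the highest early Fev-like value. The rise from early Fev-like cells was 1.88 ± 0.25 (adjusted p = 5.598e-05), or 3.67-fold, and was seen in 6 of 6 libraries. It was not called where cells were clustered on one part of the counts and tested on the other (0.92, adjusted p = 0.0781, 5 libraries) or where classes were cut by gates on single genes (0.34, adjusted p = 0.546, 2 libraries). At this step *Cdh1* passed the filter on low counts through late Fev-like cells, so only a rise could be called.

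Alpha-like cells held *Cdh1* at 44.0 to 84.2 CPM (median 55.0, 8 libraries), overlapping the late Fev-like range, with a fitted difference of −0.04 ± 0.17 (adjusted p = 0.987, 95% interval −0.36 to 0.29). Beta-like cells held more, 66 to 147 CPM with a median of 92.2 in 7 libraries. *Cdh1* rose from late Fev-like to beta-like cells by 0.82 ± 0.14 (adjusted p = 7.234e-04, higher in 6 of 7 libraries), and was higher in beta-like than in alpha-like cells by 0.86 ± 0.12 (adjusted p = 2.422e-04, 7 of 7). It did not return to the ductal level in late Fev-like cells, where it was 1.05 ± 0.20 below ductal-like cells (adjusted p = 0.00114, lower in 7 of 7). This difference was −1.83 in the version 1 and −0.71 in the version 2 kit. Mesenchymal-like cells, the reference for a lost epithelial state, had 0 to 6.92 CPM (median 2.76), a difference of −5.61 ± 0.63 from ductal-like (adjusted p = 3.53e-05) and of −4.19 ± 0.50 from late Fev-like cells (adjusted p = 6.476e-05), the latter −2.78 with doublets kept.

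**Figure D1:**
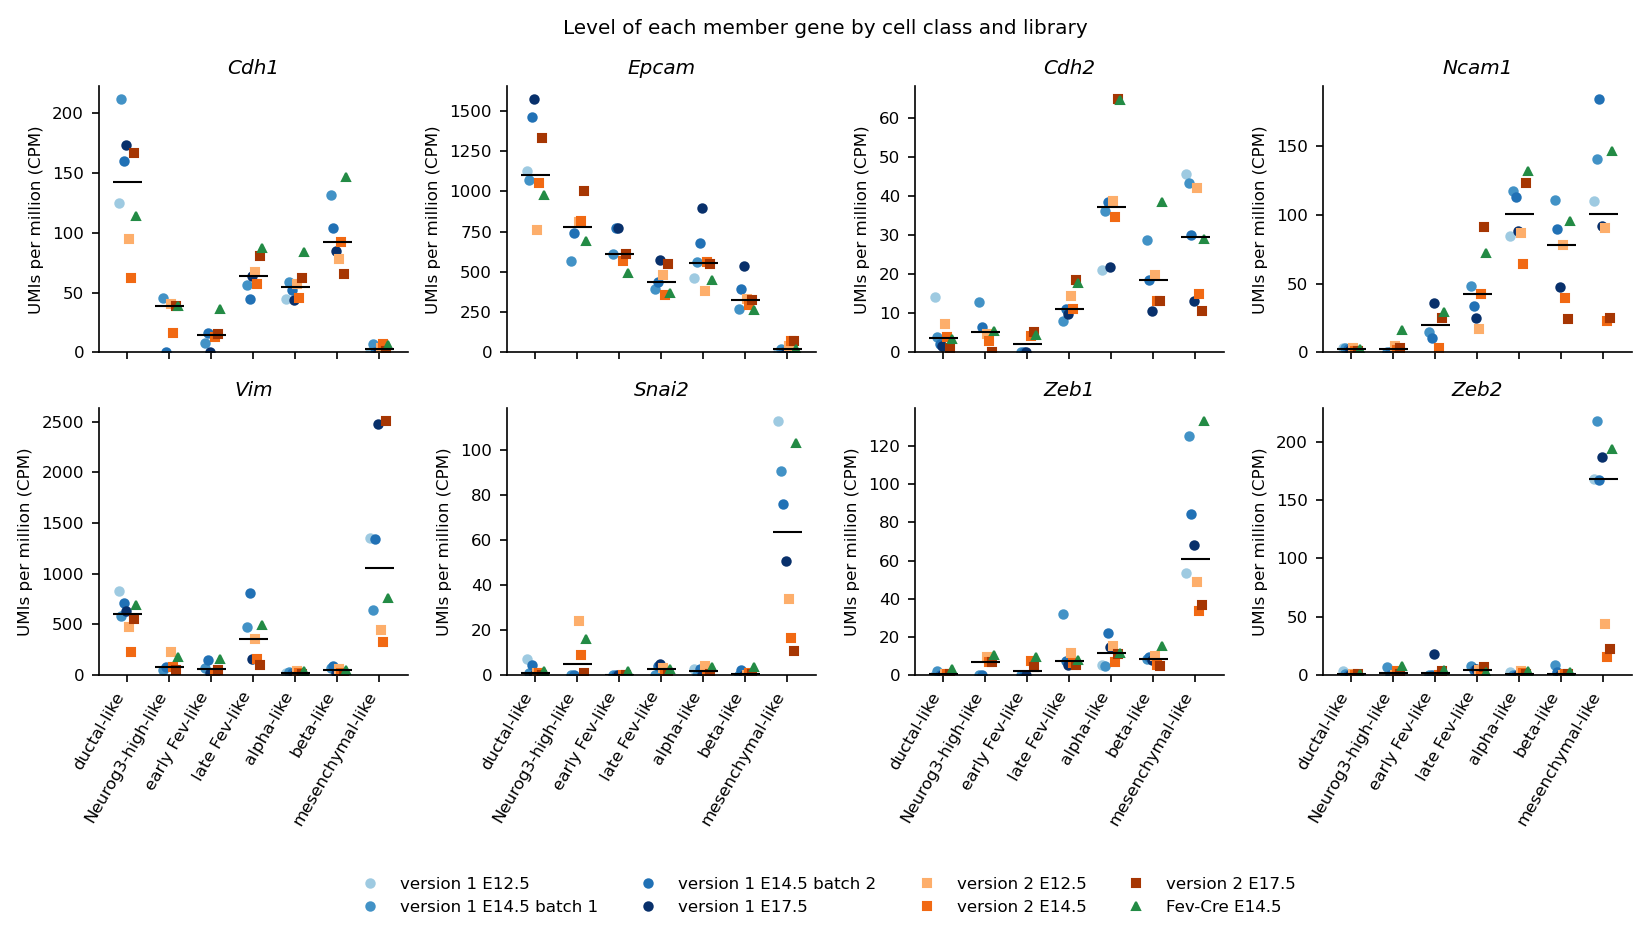
Level of each of the 8 genes by class, in CPM, with 1 point per library that had at least 20 cells of the class and a bar at the median. *Cdh1* is at a median of 142 CPM in ductal-like, 14.2 in early Fev-like and 64.2 in late Fev-like cells, *Epcam* goes from 1100.4 CPM in ductal-like to 439 in late Fev-like cells in steps, *Vim* comes up to 356 CPM in late Fev-like cells and falls to 16.2 in alpha-like cells, and *Snai2*, *Zeb1* and *Zeb2* have the highest medians of the 7 classes drawn, 63.3, 60.7 and 168 CPM, in mesenchymal-like cells.

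*Epcam* took another course. It was called lower at each of the 3 steps to late Fev-like cells, although each of the 3 calls was lost under at least 1 setting. Ductal-like cells held 759 CPM at the lowest, 1100.4 at the median and 1576 at the highest, and Neurog3-high-like cells 570, 777 and 1000 CPM. These ranges overlapped. The fall was −0.48 ± 0.12 (adjusted p = 0.00418, lower in 5 of 6 libraries), and it was not called without both version 1 E14.5 libraries (−0.27, adjusted p = 0.0825), which alone gave −0.93.

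Early Fev-like cells held *Epcam* at 491, 611 and 776 CPM (lowest, median, highest), a step of −0.48 ± 0.13 (adjusted p = 0.0150, lower in 3 of 5). Of 6710 genes, 9.76% were called higher at this step, 12.1% lower and 21.8% called, against 1 of the 8 genes, of which 3 passed the filter. The *Epcam* call here was lost without the Fev-Cre library (−0.43, adjusted p = 0.0827) or without version 2 E17.5 (−0.37, adjusted p = 0.0666). It was also lost with split counts (−0.40, adjusted p = 0.188, 3 libraries) and with gates on single genes (−0.073, adjusted p = 0.915, 2 libraries). In both version 1 libraries it was 0.0086 and in the 3 version 2 libraries −0.71. Late Fev-like cells held 354, 439 and 573 CPM, a step of −0.51 ± 0.11 (adjusted p = 0.00455, lower in 6 of 6), which was not called without both version 1 E14.5 libraries (−0.43, adjusted p = 0.0605). The whole way from ductal-like to late Fev-like cells was −1.53 ± 0.13 (adjusted p = 4.064e-06, lower in 7 of 7), or 0.346-fold, with no overlap between the ranges. Without the library as a block, the 3 single steps were not called (adjusted p = 0.162, 0.374 and 0.189).

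The fall stayed far from the mesenchymal level. Mesenchymal-like cells held *Epcam* at 1.56 to 73.3 CPM (median 21.5), −3.94 ± 0.61 from late Fev-like cells (adjusted p = 3.819e-04, lower in 7 of 7) and −5.88 ± 0.73 from ductal-like cells (adjusted p = 7.458e-05). The first was −5.68 in the version 1 and −2.94 in the version 2 kit, whose Swiss Webster libraries were depleted of CD140a cells, and the second −7.75 and −4.41 (unadjusted p = 0.00449 and 5.851e-04 for the kit term, adjusted p = 0.543 and 0.136). With free RNA subtracted the first was −6.55. With every cell thinned to 2000 UMIs, 76.5% to 91.4% of ductal-like cells and 50% to 66.1% of late Fev-like cells had at least 1 *Epcam* UMI, against 0.341% to 10.6% of mesenchymal-like cells, a class that should lack it and sets the background of free RNA.

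In alpha-like cells *Epcam* was at 385, 556 and 895 CPM, higher than in late Fev-like cells by 0.48 ± 0.13 (adjusted p = 0.0147, 6 of 7 libraries). That call was lost without version 1 E14.5 batch 2 (0.43, adjusted p = 0.0535) or version 2 E14.5 (0.43, adjusted p = 0.0547), without both version 1 E14.5 libraries (0.38, adjusted p = 0.138), without the E17.5 libraries (0.46, adjusted p = 0.0714) and with gates on single genes (0.19, adjusted p = 0.208). In beta-like cells it was at 263, 328 and 539 CPM. On the CPM scale, beta-like cells were below late Fev-like cells in 7 of 7 libraries, but the fit put the difference at −0.10 ± 0.14 (adjusted p = 0.565, 95% interval −0.37 to 0.16). Beta-like cells were below alpha-like cells by 0.60 ± 0.11 (adjusted p = 0.00218, 7 of 7), a call lost without both version 1 E14.5 libraries (−0.44, adjusted p = 0.0531).

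Of the 8 genes, *Vim* had the largest called differences between neighbouring classes. In ductal-like cells it ran from 226 over 605 to 828 CPM, and in Neurog3-high-like cells from 44.3 over 76.6 to 227, with overlap only at that last value. The fall was −2.25 ± 0.29 (adjusted p = 1.48e-05, 6 of 6 libraries), or 0.210-fold. With gates on single genes it was still called, but at −0.99. Without the filter on low counts, this fall had an adjusted p of 8.315e-84 on the same pools. P-values of fits without the filter thus cannot be set beside the others. Early Fev-like cells held 18, 57.1 and 160 CPM, no called step (−0.35 ± 0.27, adjusted p = 0.403, 95% interval −0.89 to 0.18), except where doublets were kept (−1.60, adjusted p = 0.0142). So at the 2 classes around the *Neurog3* peak, *Vim* and *Cdh1* were both below their ductal levels.

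Late Fev-like cells held *Vim* at 96.6 CPM at the lowest, 356 at the median and 811 at the highest of 7 libraries. The rise from early Fev-like cells was 2.00 ± 0.21 (adjusted p = 6.943e-06, 6 of 6 libraries), or 4.0-fold. At this step 4 of the 8 genes passed the filter, 3 (*Cdh1*, *Vim*, *Ncam1*) were called higher and 1 (*Epcam*) lower, where 11.2% of 5771 genes were called higher, 10.3% lower and 21.5% called at all. *Cdh1* and *Ncam1* were low in early Fev-like cells (medians of 14.2 and 19.9 CPM). They passed through late Fev-like cells, so only a rise could be called for them. The study had already named *Vim* as a mark of its later Fev population from the version 1 E14.5 libraries and among the genes of that population in the Fev-Cre library, so those 3 libraries are no independent evidence. Without both version 1 E14.5 libraries, but with Fev-Cre, the rise was 1.73 (adjusted p = 1.694e-04, 4 libraries). A fit without all 3 was not made. The other libraries, version 1 E17.5, version 2 E14.5 and version 2 E17.5, had log2 ratios of 2.58, 2.45 and 0.92. Where classes were cut by gates on single genes in place of clusters, only 2 libraries had enough cells, and the difference was −0.09 (adjusted p = 0.900).

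After late Fev-like cells *Vim* fell. Alpha-like cells held 0 to 38.8 CPM (median 16.2, 8 libraries) and beta-like cells 5.33 to 90.0 (median 47.1, 7 libraries), neither overlapping the late Fev-like range. The falls were −3.54 ± 0.23 (adjusted p = 4.098e-08) and −2.94 ± 0.13 (adjusted p = 1.347e-08), in 7 of 7 libraries each, the first at −2.02 with gates on single genes. The difference between beta-like and alpha-like cells was not called (0.57 ± 0.26, adjusted p = 0.146), but was without version 2 E17.5 (0.80, adjusted p = 0.0451), with free RNA subtracted (1.16, adjusted p = 0.0323) and without the filter on low counts (0.60, adjusted p = 0.0116). Delta-like cells held 0 to 24.5 CPM and epsilon-like cells 11.5 to 36.6 (4 libraries each).

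The rise in late Fev-like cells reached no more than the ductal level. Late Fev-like cells were 0.98 ± 0.31 below ductal-like cells (adjusted p = 0.0174, lower in 6 of 7), and 0.44 below without the E17.5 libraries (log2 −0.44, adjusted p = 0.0323). Mesenchymal-like cells held 328 to 2504 CPM (median 1052), above ductal-like cells by 0.86 ± 0.28 (adjusted p = 0.0250, 7 of 8 libraries) and above late Fev-like cells by 1.81 ± 0.60 (adjusted p = 0.0284, 7 of 7). The first call was lost without version 1 E14.5 batch 2 (0.84, adjusted p = 0.0557) and the second without version 1 E17.5 (1.42, adjusted p = 0.0595). Both calls were lost without both version 1 E14.5 libraries (0.96, adjusted p = 0.0571, and 2.33, adjusted p = 0.0579). Without both E17.5 libraries these differences were 0.44 (adjusted p = 0.0391) and 0.89 (adjusted p = 0.00173).

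**Figure D2:**
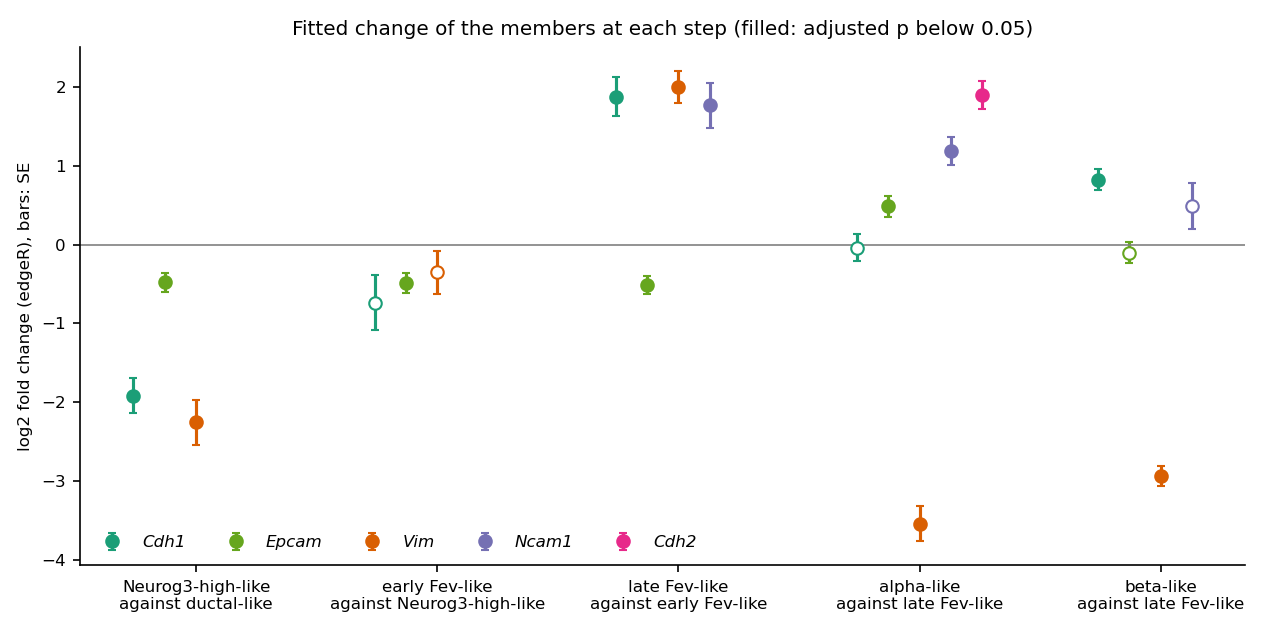
Fitted log2 fold change (vertical axis) with bars of 1 SE for each gene that passed the filter on low counts, at 5 comparisons of neighbouring classes, filled where the gene was called. *Epcam* lies below 0 at the 3 steps to late Fev-like cells (−0.48, −0.48 and −0.51), while *Cdh1* and *Vim* are called lower at the first step and higher at the late Fev step (1.88 and 2.00).

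*Vim* was then set beside mesenchymal tracer genes, which give the level of mesenchymal RNA counted in droplets of other classes. The tracers, 12 genes of connective tissue fixed as a list, were summed and given as a percentage of their level in the mesenchymal-like cells of the same library. In late Fev-like cells *Vim* stood at a median of 60.4% of its mesenchymal level (3.86% to 81.0%), and the tracers at 2.02% (1.05% to 16.7%). *Vim* exceeded the tracers in 7 of 7 libraries. The highest tracer value was that of version 2 E12.5, where *Vim* was at 81.0%. In ductal-like cells the medians were 64.9% and 4.91%, in Neurog3-high-like cells 15.6% and 6.43%, and in early Fev-like cells 8.36% and 3.85%. In alpha-like cells the medians were 2.82% and 3.37%, with *Vim* above the tracers in 4 of 8 libraries. The 10 mesenchymal markers that named the mesenchymal-like class, collagens among them, had at least 1 UMI for 5 to 10 of them in the late Fev-like cells of a library and summed to 71.5 to 313 CPM (median 214), against 72.3 to 632 CPM (median 327) in early Fev-like cells, so their median was lower where *Vim* was higher.

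**Figure D3:**
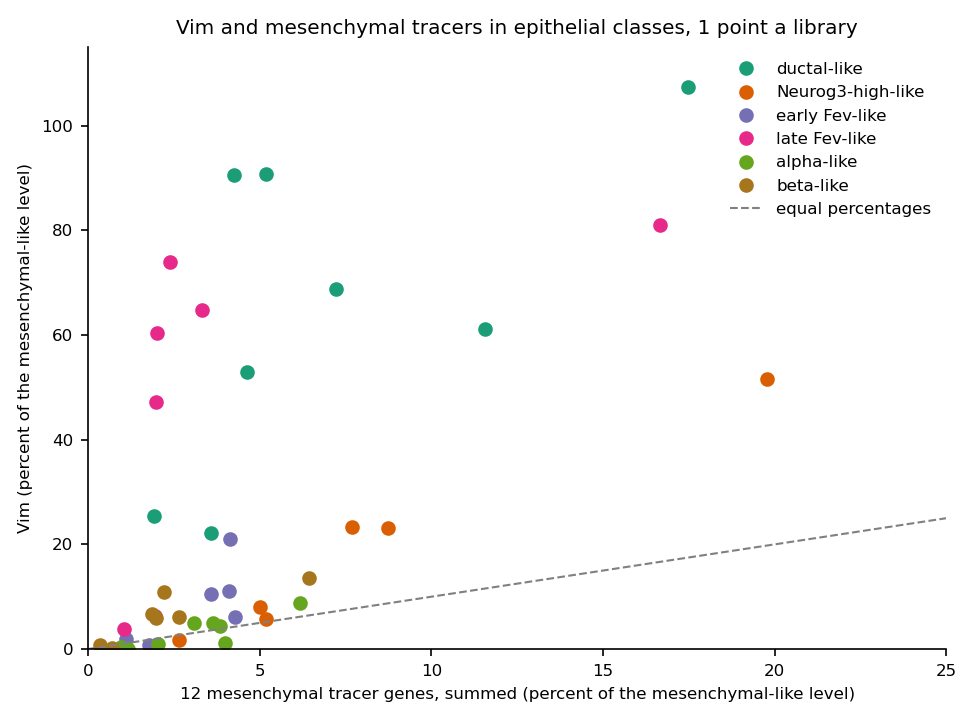
*Vim* (vertical axis) against the 12 mesenchymal tracers summed (horizontal axis), each as a percentage of its level in the mesenchymal-like cells of the same library, with 1 point per library and class, coloured by class, and a dashed line where the percentages are equal. All 7 late Fev-like points lie above the line, while alpha-like points lie on both sides of it.

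*Epcam* was counted in the same late Fev-like cells as *Vim*. With cells thinned to 2000 UMIs, 14.0% to 51.7% of late Fev-like cells had a *Vim* UMI, against 0% to 7.22% of alpha-like cells. *Epcam* was detected in 56.8% of the *Vim*-positive and 54.4% of the *Vim*-negative cells (means of 7 libraries), a difference of 2.41 percentage points with an SD of 23.0. It was higher in *Vim*-positive cells in 5 of 7 libraries (exact two-sided permutation test, p = 0.719, the smallest possible being 0.0156). *Cdh1* was detected in 11.5% and 9.53%, a difference of 2.01 points with an SD of 6.06 (higher in 3 of 7, exact permutation p = 0.375). A loss of *Epcam* or *Cdh1* from the *Vim*-positive cells was thus not detectable, but the spread over libraries could hide a sizeable one. In version 1 E17.5 *Epcam* was detected in 33.3% of 12 *Vim*-positive and 74.5% of *Vim*-negative cells, while 5 of 7 libraries went the other way. At 2000 UMIs a cell that expresses *Vim* can lack a *Vim* UMI, so the split does not cleanly part expressing from other cells. In the Fev-Cre library, the largest, 163 of 607 cells had both *Vim* and *Epcam*.

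**Figure D4:**
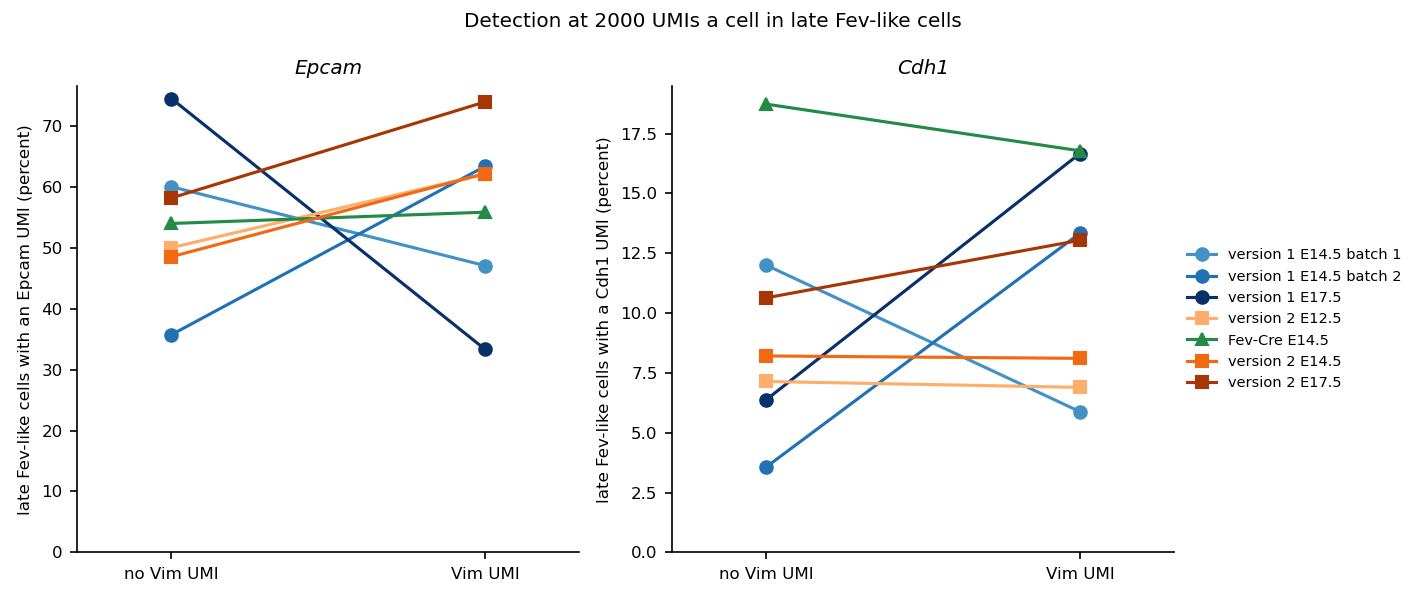
Share of late Fev-like cells with an *Epcam* UMI (left) or a *Cdh1* UMI (right), in percent, among cells without and with a *Vim* UMI, at 2000 UMIs per cell, with 1 pair of points per library joined by a line. *Epcam* goes up in 5 of the 7 libraries and *Cdh1* in 3.

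*Ncam1* rose along the endocrine course. It was at 0.922 to 3.57 CPM in ductal-like cells, 0 to 16.0 in Neurog3-high-like cells (median 2.64), and 2.88 to 36.1 in early Fev-like cells (median 19.9). Late Fev-like cells held 17.2, 42.1 and 90.9 CPM, higher than early Fev-like cells by 1.76 ± 0.28 (adjusted p = 2.906e-04, 5 of 6 libraries). This is 3.40-fold. It was not called where cells were clustered on one part of the counts and tested on the other (0.88, adjusted p = 0.0819, 5 libraries). From ductal-like to late Fev-like cells *Ncam1* rose by 4.72 ± 0.41 (adjusted p = 3.697e-06, 7 of 7), where 26.6% of 7789 genes were called higher, 28.5% lower and 55.2% at all. *Ncam1* did not pass the filter on low counts at the steps before late Fev-like cells. In this comparison and at the late Fev step it passed through late Fev-like cells, so only a rise could be called. Of the 8 genes 4 passed the filter there, 1 higher and 3 (*Cdh1*, *Epcam*, *Vim*) lower.

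Alpha-like cells held *Ncam1* at 64.5, 101 and 132 CPM, 1.19 ± 0.18 above late Fev-like cells (adjusted p = 1.871e-04, 7 of 7), and 0.75 with Scrublet doublets removed instead. Of 7308 genes, 10.3% were called higher, 9.22% lower and 19.5% called at this step. Of the 8 genes 5 passed the filter, 3 (*Cdh2*, *Epcam*, *Ncam1*) were called higher and 1 (*Vim*) lower. Beta-like cells held 24.1, 77.8 and 111 CPM, not called against late Fev-like cells (0.49 ± 0.29, adjusted p = 0.249) and called 0.66 ± 0.18 below alpha-like cells (adjusted p = 0.0190, lower in 7 of 7). The latter call was lost without the E17.5 libraries (−0.35, adjusted p = 0.0949), in 1 fit over all epithelial classes (−0.59, adjusted p = 0.0792) and with gates on single genes (−0.75, adjusted p = 0.0922). Without version 2 E17.5, the library with the lowest beta-like value, the difference from late Fev-like cells was 0.96 (adjusted p = 0.0112), and without the filter on low counts it was 0.52 (adjusted p = 0.0218). Between beta-like and late Fev-like cells 4 of the 8 genes passed the filter, 1 (*Cdh1*) was called higher and 1 (*Vim*) lower, against 12.7% of 6261 genes higher, 10.1% lower and 22.8% called.

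Mesenchymal-like cells held *Ncam1* at 23.2, 101 and 184 CPM, overlapping early Fev-like, late Fev-like, alpha-like and beta-like cells and all above Neurog3-high-like cells. The difference from late Fev-like cells was not called (1.09 ± 0.50, adjusted p = 0.0980, higher in 5 of 7), although it was without version 2 E14.5 (1.42, adjusted p = 0.0475) or version 2 E17.5 (1.57, adjusted p = 0.00735), without the E17.5 libraries (1.46, adjusted p = 0.0228) or by DESeq2 (1.335, adjusted p = 0.0194), while that from ductal-like cells was 5.11 ± 0.21 (adjusted p = 7.685e-08, 8 of 8).

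*Cdh2*, the cadherin whose gain defines the cadherin switch of EMT, was below the alpha-like range in the classes before hormone cells. It was at 1.11 to 14.3 CPM in ductal-like cells, 0 to 12.95 in Neurog3-high-like cells and 0 to 5.16 in early Fev-like cells, and it was filtered out of the fits among these classes. Late Fev-like cells held 8.02, 11.3 and 18.6 CPM, all above the highest early Fev-like value. *Cdh2* was at 0 in 3 of the 6 early Fev-like sums. Among them was version 1 E17.5, whose floor given above exceeds every late Fev-like value. A level like that of late Fev-like cells was thus not detectable there. Without the filter on low counts, *Cdh2* was higher in late Fev-like than in early Fev-like cells by 1.88 ± 0.50 (adjusted p = 0.001845, 6 of 6 libraries) and than in ductal-like cells by 1.94 ± 0.37 (adjusted p = 4.37e-05, 7 of 7). These p-values are not comparable with those of filtered fits, as given for *Vim*. Alpha-like cells held 21.1, 37.4 and 65.1 CPM, all above late Fev-like cells, a rise of 1.90 ± 0.17 (adjusted p = 1.211e-06, 7 of 7) or 3.72-fold, and 1.22 with gates on single genes. Beta-like cells held 10.6, 18.5 and 38.5 CPM, 1.1 ± 0.17 below alpha-like cells (adjusted p = 5.13e-04, 7 of 7). *Cdh2* did not pass the filter between beta-like and late Fev-like cells. In both fits with alpha-like cells it passed through that class, where it is higher, so the direction was set by the filter. Delta-like cells held 69.6, 79.5 and 138 CPM in 4 libraries, each above the highest alpha-like value, a difference that was not tested. Between beta-like and alpha-like cells 5 of the 8 genes passed the filter, 1 (*Cdh1*) was called higher and 3 (*Cdh2*, *Epcam*, *Ncam1*) lower, against 10.5% of 7003 genes higher, 8.62% lower and 19.1% called.

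Alpha-like, beta-like and delta-like cells thus held counts of both *Cdh2* and *Cdh1*. In mesenchymal-like cells *Cdh2* was at 10.6, 29.6 and 45.9 CPM, within the range of alpha-like and beta-like cells, and higher than in late Fev-like cells by 0.98 ± 0.30 (adjusted p = 0.0196, 6 of 7). That call was lost without version 2 E12.5 (0.83, adjusted p = 0.0543) or Fev-Cre E14.5 (0.98, adjusted p = 0.0558), without both version 1 E14.5 libraries (0.77, adjusted p = 0.0904) and with gates on single genes (0.53, adjusted p = 0.126).

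The transcription factors that lower *Cdh1* were near the counting floor in most epithelial classes. *Snai2* (Slug), *Zeb1* and *Zeb2* passed the filter, among the comparisons of classes, only in those with mesenchymal-like cells. They passed through that class, where they are high, so the direction of these differences was set by the filter. The values below describe mesenchymal-like cells and support nothing. Their mesenchymal-like levels were 10.8 to 113 CPM for *Snai2* (median 63.3), 33.3 to 133 for *Zeb1* (median 60.7) and 15.1 to 218 for *Zeb2* (median 168). Against ductal-like cells they were higher by 5.47 ± 0.32, 6.31 ± 0.26 and 6.05 ± 0.39, each in 8 of 8 libraries (adjusted p = 4.517e-07, 6.7e-08 and 8.016e-07). Against late Fev-like cells they were higher by 5.07 ± 0.35, 3.31 ± 0.30 and 4.75 ± 0.55, each in 7 of 7 (adjusted p = 3.791e-06, 1.262e-05 and 5.265e-05). Between mesenchymal-like and ductal-like cells 8 of the 8 genes passed the filter, 6 were called higher and 2 lower, where 24.8% of 11150 genes were called higher, 23.8% lower and 48.6% called. Between mesenchymal-like and late Fev-like cells 5 were called higher and 2 lower, where 27.9% of 10828 genes were called higher, 21.4% lower and 49.3% called.

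*Snai2* had counts in Neurog3-high-like cells of some libraries. These were 23.9 CPM (10 UMIs) in version 2 E12.5, 16.0 CPM (20 UMIs) in Fev-Cre E14.5, 8.67 CPM (9 UMIs) in version 2 E14.5 and 0.671 CPM (1 UMI) in version 2 E17.5. Both version 1 E14.5 libraries were at 0, with floors of 19.4 and 19.3 CPM, so levels like the 16.0, 8.67 and 0.671 CPM of the other libraries were not detectable there, while 23.9 CPM is above those floors. As a share of the mesenchymal-like level *Snai2* was at 70.8%, 15.5%, 52.5% and 6.21% in the 4 libraries with counts, and the tracers at 19.8%, 7.69%, 8.73% and 2.66%. That reference level itself ran from 10.8 to 113 CPM over libraries (median 63.3), so these shares are not on 1 scale. The version 2 Swiss Webster libraries were also depleted of CD140a cells, and the part of this in the shares was not tested. Ductal-like cells held 0 to 7.14 CPM (median 0.900), and early Fev-like cells held 0 UMIs in 5 of 6 libraries, with floors of 3.10 to 54.1 CPM. Without the filter on low counts, *Snai2* was higher in Neurog3-high-like than in ductal-like cells by 3.18 ± 0.56 (adjusted p = 7.64e-08) and lower in early Fev-like than in Neurog3-high-like cells by 3.66 (log2 −3.66 ± 1.24, adjusted p = 0.00711), fits in which the Neurog3-high-like sums with counts held 1 to 20 UMIs each. Fits without the filter give far smaller p-values on the same pools, as given for *Vim*, so these are no measure of strength.

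*Zeb1* stood at 0 to 2.85 CPM in ductal-like cells, 0 to 10.4 in Neurog3-high-like cells, 4.94 to 32.1 in late Fev-like cells and 4.52 to 22.1 in alpha-like cells. As a share of its mesenchymal-like level this was a median of 0.633% in ductal-like, 13.7% in late Fev-like and 20.7% in alpha-like cells, where the tracers stood at 4.91%, 2.02% and 3.37%. By the medians, *Zeb1* was above the tracers in late Fev-like and alpha-like cells and below them in ductal-like cells. It was also above them in Neurog3-high-like (13.1% against 6.43%) and beta-like cells (11.6% against 1.98%). In early Fev-like cells it was below them (3.44% against 3.85%). Without the filter *Zeb1* was higher than in ductal-like cells by 3.0 ± 0.53 in late Fev-like cells (adjusted p = 9.693e-06) and by 3.08 ± 0.57 in Neurog3-high-like cells (adjusted p = 3.177e-07). *Zeb2* had medians of 0.735 to 4.30 CPM in the 6 epithelial classes of the course, and 1.16% to 3.01% of its mesenchymal-like level, below the tracers in 5 of these 6 by the median and above them in late Fev-like cells (2.64% against 2.02%). Without the filter *Zeb2* was higher in late Fev-like than in ductal-like cells by 1.97 ± 0.65 (adjusted p = 0.0119), and its difference between Neurog3-high-like and ductal-like cells was 1.62 ± 0.76 (adjusted p = 0.0815). The p-values without the filter, for *Zeb1* and *Zeb2* alike, are not comparable with those of filtered fits.

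Other genes of junctions and of EMT were taken from lists chosen by function. Among 21 genes of tight junctions and polarity, all tested between Neurog3-high-like and ductal-like cells, 4 were higher and 10 lower, with a median of −0.39 against −0.02 over all genes. *Cldn8*, a claudin of tight junctions, fell by 5.88 ± 0.42 (adjusted p = 4.789e-08), and *Cldn12*, another claudin, rose by 2.46 ± 0.18 (adjusted p = 5.39e-08). Over all genes 24.4% were higher and 26.4% lower at this step. Of 8 tested desmosome and keratin genes 1 was higher and 5 lower. Of the 14 genes of the EMT factor list only 3 passed the filter, and the others were not tested. These 3, *Sox4* (1.47 ± 0.11), *Tcf4* (0.63 ± 0.18) and *Tcf3* (0.33 ± 0.10), were all higher. Of 7 tested mesenchymal effector genes 1 was higher and 4 lower, led by *Ctgf* (−6.05 ± 0.50, adjusted p = 1.788e-07) and *Cyr61* (−5.14 ± 0.31, adjusted p = 9.127e-09), secreted matricellular proteins.

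In the list of neuron-type migration and cytoskeleton, 8 of 11 tested genes were higher at this step and 0 lower, against 24.4% and 26.4% of all genes, with a median of 0.71 against −0.02 over all genes. Only these 11 of the 19 genes of the list passed the filter on low counts. A gene that passed only through Neurog3-high-like cells could only be called higher, so the count is a description. The same limit holds for the counts of the other lists. *Tubb3*, a neuronal tubulin, rose by 7.98 ± 0.24 (adjusted p = 8.753e-12) and *Map1b*, a microtubule-binding protein, by 5.70 ± 0.25 (adjusted p = 3.287e-10). Of 10 genes tested again at the late Fev step, 0 were higher and 5 lower, against 11.2% and 10.3% of all genes.

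At the step to early Fev-like cells, *Cldn4* rose by 2.55 ± 0.11 (adjusted p = 2.213e-08), *Map1b* by 1.62 ± 0.12 (adjusted p = 1.948e-06) and the adhesion molecule gene *Alcam* by 1.39 ± 0.20 (adjusted p = 2.625e-04). *Prss8*, a membrane protease of epithelia, fell by 3.05 ± 0.32 (adjusted p = 1.876e-05), and the matrix protein gene *Sparc* by 2.86 ± 0.29 (adjusted p = 1.434e-05). All 3 tested EMT factors (*Tcf4*, *Tcf3*, *Sox4*) and 4 of 5 tested mesenchymal effectors were lower, against 12.1% of all genes.

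At the late Fev step, where *Vim* rose, only 3 of the 26 mesenchymal effectors could be tested. Of these 0 were higher and 2 lower (11.2% and 10.3% of all genes), among them *Cald1*, an actin-binding protein gene (−1.67 ± 0.29, adjusted p = 6.587e-04). *Sox4* fell by 1.54 ± 0.18 (adjusted p = 1.471e-05), *Cldn6* by 2.04 ± 0.18 (adjusted p = 1.847e-06), and the keratins *Krt7*, *Krt8* and *Krt19* by 1.49 ± 0.16, 0.98 ± 0.12 and 1.34 ± 0.21. *Crb3*, of the apical polarity complex, rose by 0.47 ± 0.13 (adjusted p = 0.0132), and *Ctnnb1* (beta-catenin, which binds cadherins) by 0.57 ± 0.15 (adjusted p = 0.0139).

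Over the whole way from ductal-like to late Fev-like cells, 2 of 21 tight junction and polarity genes were higher and 13 lower (median −0.64) and 1 of 9 tested desmosome and keratin genes was higher and 7 lower (median −1.57), against 26.6% of all genes higher, 28.5% lower and a median of 0.00145. Of 26 mesenchymal effectors only 6 passed the filter on low counts, and those 6 were lower. Whether a gene passes depends on its counts in the classes compared, so this count is a description, and the other 20 were not tested. *Cldn4* was the tight junction gene with the largest rise (2.23 ± 0.18, adjusted p = 1.81e-06). *Cdh3* (P-cadherin), the one other cadherin tested, was lower (−3.43 ± 0.63, adjusted p = 7.569e-04).

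Mesenchymal-like cells were compared over the same lists, on a different set of tested genes. Many of these genes passed the filter through the mesenchymal-like cells, where they are high, so the counts describe that class and support nothing. Against ductal-like cells 20 of 23 tested mesenchymal effectors were higher and 2 lower, 5 of 7 tested EMT factors were higher and 1 lower, and 17 of 20 tested tight junction genes were lower and 0 higher, against 24.8% of all genes higher and 23.8% lower. *Lox*, a collagen-crosslinking enzyme, was higher by 7.98 ± 0.31 (adjusted p = 5.095e-08). Against late Fev-like cells, 22 of 23 tested effectors were higher, against 27.9% of all genes higher and 21.4% lower, and the EMT factors *Twist2* and *Prrx1* were higher by 7.20 ± 0.36 and 6.77 ± 0.38.

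**Figure D5:**
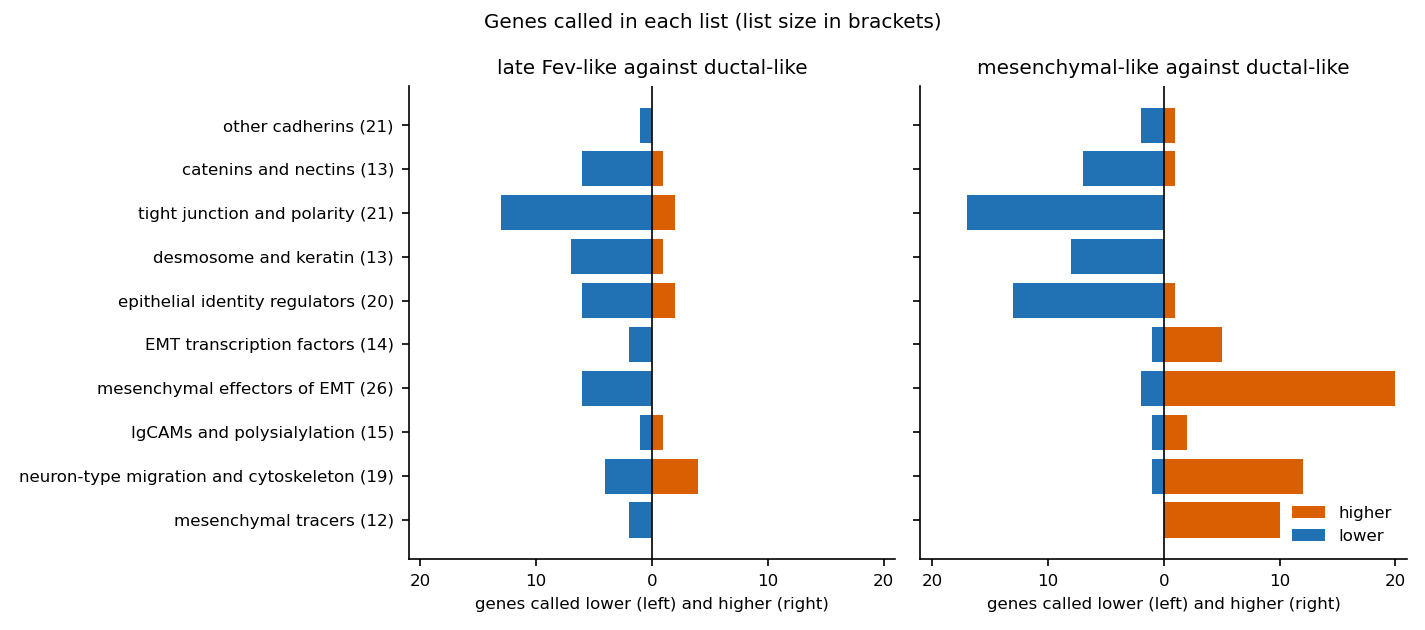
Number of genes of each list that were called lower (bars to the left) or higher (bars to the right) in late Fev-like and in mesenchymal-like cells, both against ductal-like cells, with the list size in brackets. The genes tested differ between the panels, 6 of the 26 mesenchymal effectors in late Fev-like cells (6 lower) and 23 in mesenchymal-like cells (2 lower, 20 higher), and tight junction and polarity genes are mostly lower in both (13 and 17).

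In alpha-like and beta-like cells the junction genes went on changing. From late Fev-like to alpha-like cells 7 of 15 tested tight junction genes were lower and 1 higher, against 9.22% and 10.3% of all genes, with *Cldn4* at −2.06 ± 0.16 (adjusted p = 1.767e-07). *Krt19* was −1.97 ± 0.26 (adjusted p = 4.527e-05) and *Sox4* −2.30 ± 0.22 (adjusted p = 2.013e-06), while *Tgfb2*, a growth factor listed among the effectors, rose by 3.28 ± 0.33 (adjusted p = 2.643e-06) and *Spint2*, a protease inhibitor of epithelia, by 1.17 ± 0.10 (adjusted p = 9.084e-07). From late Fev-like to beta-like cells 5 of 12 tested tight junction genes were lower and 1 higher, against 10.1% and 12.7% of all genes, and *Muc1*, an apical mucin, fell by 1.82 ± 0.19 (adjusted p = 2.295e-05). Beta-like exceeded alpha-like cells in *Krt19* (2.42 ± 0.22) and in the polarity gene *Pard3* (2.26 ± 0.27, adjusted p = 7.863e-05), and were lower in *Tgfb2* (−3.34 ± 0.40, adjusted p = 7.959e-05).

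Stage could be compared only weakly in the endocrine classes, since late Fev-like, Neurog3-high-like and beta-like cells reached 20 cells in 1 E12.5 library, version 2 E12.5. In late Fev-like cells *Vim* was at 356 CPM at E12.5 (1 library), at 473, 811, 494 and 155 CPM at E14.5 (version 1 batches 1 and 2, Fev-Cre and version 2), and at 158 and 96.6 CPM at E17.5. The fit over the 6 Swiss Webster libraries, with the kit as a covariate, gave −2.26 ± 0.42 for E17.5 against E12.5 (adjusted p = 1.478e-05), where 7.03% of 8066 genes were called. It takes the lone E12.5 library to vary like the others, and without the kit as a covariate the value was −1.69 and not called (adjusted p = 0.444). In beta-like cells, at 59.8 CPM in that library against 21.1 and 5.33 at E17.5, the same fit gave −2.69 ± 0.46 (adjusted p = 0.00174, 5.22% called), also not called without the kit (adjusted p = 0.294). In Neurog3-high-like cells *Vim* was at 227 CPM in 1 library at E12.5 and 44.3 in 1 at E17.5, a difference with no replicate at either stage, for which the fit (3.16% of genes called) is not read here. The mesenchymal tracers also stood lower at E17.5 in these classes, as a share of a mesenchymal-like level that was itself higher at E17.5 for 7 of 11 tested tracers. They stood at 16.7% of their mesenchymal-like level at E12.5 against 1.94% and 1.05% at E17.5 in late Fev-like cells, at 19.8% against 2.66% in Neurog3-high-like cells and at 6.43% against 0.364% and 0.712% in beta-like cells. In late Fev-like cells 1 of 2 tested tracers and 3 of 5 tested mesenchymal effectors were called lower. The part of these in the *Vim* differences was not tested. *Vim* was not called in ductal-like cells (0.13 ± 0.37, adjusted p = 0.926, 6.08% called) or alpha-like cells (−1.48 ± 0.63, adjusted p = 0.205, 4.70% called).

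In mesenchymal-like cells *Vim* went the other way without passing the threshold (2.04 ± 0.56, adjusted p = 0.0557), at 1355 and 439 CPM at E12.5 and at 2477 and 2504 at E17.5. It passed without version 1 E17.5 (2.69, adjusted p = 0.0317) or version 1 E14.5 batch 1 (2.08, adjusted p = 0.0480), by DESeq2 (2.03, adjusted p = 0.00236) and without the filter on low counts (2.00, adjusted p = 0.00776). There 10.5% of 13527 genes were called, among them *Cdh2* (−1.63 ± 0.33, adjusted p = 0.0190) and *Snai2* (−1.13, adjusted p = 0.0282), both calls lost without several single libraries and without the kit as a covariate (adjusted p = 0.135 and 0.704). *Ncam1* in late Fev-like cells was at 17.2 CPM in the 1 E12.5 library and at 24.7 and 90.9 CPM at E17.5. Its fitted difference of 2.11 ± 0.58 (adjusted p = 0.00779) thus rests on 1 library at E12.5, and it was not called without version 2 E17.5 (0.53, adjusted p = 0.950), by DESeq2 (1.96, adjusted p = 0.960) or without the kit as a covariate (1.79, adjusted p = 0.432). In mesenchymal-like cells *Ncam1* was called lower at E17.5 only without version 1 E12.5 (−1.80, adjusted p = 0.0334). *Cdh1* and *Epcam* were not called with stage in any of the 6 classes fitted, except that *Cdh1* in ductal-like cells passed without version 1 E17.5 (1.16, adjusted p = 0.0484), and no E12.5 library held 20 early Fev-like cells, so these were not fitted.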

How the data were processed

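The deposited matrices hold UMI counts for each gene in each cell, and the authors made them with Cell Ranger 1.1 (version 1) or Cell Ranger 2.1 (version 2), with alignment to mm10 by STAR. The reporter alignment of the Fev-Cre library was used, and its other alignment was not used here.

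Cells with at least 200 genes were kept. They were clustered (Leiden, resolution 1, and 1.5 among endocrine cells, 20 principal components, 2000 variable genes, scanpy 1.11.5 and leidenalg 0.10.2) with 192 genes of the lists described here held out, and named by markers. Cells with marker genes of 2 compartments were removed as doublets, 0.368% to 12.7% of a library. Counts were summed per library and class and tested with edgeR 4.0.16 (TMM, filterByExpr, quasi-likelihood) under R 4.3.3. DESeq2 1.42.0 was an alternative. Detection was compared at 2000 UMIs per cell by an exact two-sided permutation test.

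The 8 genes, the lists and the tests were chosen with earlier results of these data known. Named list genes are the 3 with the largest called rise and the 3 with the largest called fall that moved the same way in every library, per comparison. Some genes that these rules name are not reported here. Genes named outside that rule were chosen after their values were seen. The block is sound because both classes of a library come from 1 suspension. Deviations of a library's classes from the class means correlated at r = 0.539 to 0.914, and every library correlated best with itself. On simulated data for the late Fev step (5774 genes, 98 of them changed), 100% of 4-fold and 65.5% of 2-fold changes were recovered. Of the calls 3.70% were false. The real step had 1243 called genes, and whether these rates hold with so many changes was not tested.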

Additional observations from a re-analysis of the deposited data

Results flagged for a closer look

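Of 44 member comparisons with 4 or more libraries, 4 held a library that stood apart from the others, on the scale of log2(CPM + 10). Chance alone gives about 1 in 20. *Cdh1* between Neurog3-high-like and ductal-like cells was at −4.09 in version 1 E14.5 batch 2 and at −2.01 to −1.05 in the other 5 libraries. That library held 0 *Cdh1* UMIs in its 36 Neurog3-high-like cells, with a floor of 19.3 CPM. *Epcam* between beta-like and alpha-like cells was at −0.20 in version 2 E12.5, and at −1.04 to −0.72 in the other 6. *Epcam* between late Fev-like and ductal-like cells was at −0.64 in the same library, and at −1.71 to −1.27 in the other 6. This library had 57 late Fev-like cells, and its mesenchymal tracers there were at 16.7% of the mesenchymal-like level, where the median was 2.02%. The part of the tracers in this value was not tested. *Ncam1* between beta-like and alpha-like cells was at −1.96 in version 2 E17.5 and at −0.77 to −0.08 in the other 6.

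A term for stage by class over the 6 Swiss Webster libraries with both classes, added after the data had been seen, tested whether a difference between classes changed from E12.5 to E17.5. The difference in *Vim* between mesenchymal-like and late Fev-like cells had a term of 4.40 ± 0.43 on the log2 scale, higher at E17.5 (adjusted p = 0.00315, 135 of 10150 genes called). The difference in *Vim* between late Fev-like and ductal-like cells changed by −2.10 ± 0.32 (adjusted p = 1.191e-04, 603 of 7234 genes called). In that comparison *Ncam1* changed by 3.28 ± 0.77 (adjusted p = 0.00721) and *Epcam* by −0.88 ± 0.25 (adjusted p = 0.0322). E12.5 late Fev-like cells came from 1 library in these fits, version 2 E12.5, with tracers at 16.7% of the mesenchymal-like level. The p-values take that library to vary like the others and are no replicated evidence of a change with stage. Stage, litter and digestion time cannot be told apart.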

How the results depend on the processing

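Each difference of the 8 genes was recomputed under the alternatives, in 1170 combinations over 74 results. Of these, 1072 kept direction and side of the threshold, 53 lost a call, 20 gained one and 25 changed sign. Co-detection was recomputed as well and is not in these counts. The cause was not tested in any case.

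Without the library as a replicate block, counts of called genes fell to 2524 for Neurog3-high-like against ductal-like cells, 284 for early Fev-like against Neurog3-high-like, 363 for late Fev-like against early Fev-like, 372 for alpha-like and 388 for beta-like against late Fev-like and 365 for beta-like against alpha-like cells, from 4122, 1465, 1243, 1426, 1425 and 1340. The pairing also decided *Epcam* in alpha-like against late Fev-like (adjusted p = 0.224) and beta-like against alpha-like cells (0.252), *Ncam1* at the late Fev step (1.59, 0.0510) and in beta-like against alpha-like cells (−0.59, 0.155) and *Vim* in late Fev-like against ductal-like cells (−0.80, 0.108), all lost, while *Ncam1* in mesenchymal-like against late Fev-like cells was gained (1.23, 0.0346).

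The first 3 steps had 2566, 399 and 612 called genes with split counts and 2578, 183 and 249 with gates on single genes. Without the E17.5 libraries, an alternative chosen after seeing the data, there were 962 at the early Fev step, 801 for beta-like against late Fev-like and 735 for beta-like against alpha-like cells. Beta-like against late Fev-like cells had 2216 with doublets kept and 2335 with Scrublet. Without the filter there were 2312 for beta-like against alpha-like, 6604 for late Fev-like against ductal-like cells, and by stage 1038 in ductal-like and 610 in beta-like cells. The stage fits called 546 genes in ductal-like, 223 in Neurog3-high-like, 567 in late Fev-like, 279 in alpha-like, 371 in beta-like and 1420 in mesenchymal-like cells. Without the kit term these were 305, 0, 55, 45, 74 and 36. The count of 0 is edgeR's, with 390 of 7046 genes at an unadjusted p under 0.05. DESeq2, with the kit term, called 24 in Neurog3-high-like, 97 in late Fev-like, 160 in alpha-like and 192 in beta-like cells.

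Signs changed for *Cdh1* at the early Fev step with split counts (0.42) and gates (0.098), and in alpha-like against late Fev-like cells with doublets kept (0.069), resolution 2 (0.025) and split counts (0.017). They changed with gates for *Vim* at the early Fev step (0.012) and the late Fev step (−0.093), and for *Vim* in beta-like against alpha-like cells with doublets kept (−0.072) and resolution 2 (−0.11). In beta-like against late Fev-like cells they changed for *Ncam1* with Scrublet (−0.19) and *Epcam* at resolution 2 (0.010). By stage they changed for *Cdh1* in Neurog3-high-like cells without the filter (0.012), *Cdh2* in beta-like cells by DESeq2 (−0.075) and *Zeb2* in mesenchymal-like cells without the kit term (0.23). The *Epcam* co-detection difference was −2.06 points with doublets kept. Of these, the late Fev step of *Vim* was the one called in the analysis reported.

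With each library left out in turn, counts ran from 3472 to 4107 (Neurog3-high-like against ductal-like), 844 to 1430 (early Fev step), 689 to 1286 (late Fev step), 892 to 1516 (alpha-like and late Fev-like), 926 to 1908 (beta-like and late Fev-like), 704 to 1920 (beta-like and alpha-like), 3413 to 4662 (late Fev-like and ductal-like), 4762 to 5412 (mesenchymal-like and ductal-like) and 4264 to 5411 (mesenchymal-like and late Fev-like). By stage they ran from 152 to 947 in ductal-like, 165 to 731 in late Fev-like, 62 to 533 in alpha-like, 203 to 726 in beta-like and 661 to 1337 in mesenchymal-like cells. Version 2 E17.5 gave the lowest of these in late Fev-like, beta-like and mesenchymal-like cells, and 278 in ductal-like and 73 in alpha-like cells. Version 2 E12.5 gave the lowest in ductal-like and alpha-like cells and 851 in mesenchymal-like cells, and version 1 E14.5 batch 1 the highest in ductal-like, alpha-like and beta-like cells. Version 2 E14.5 gave 362 in late Fev-like and 458 in beta-like cells. Version 1 E14.5 batch 2 gave 787 and version 1 E12.5 911 in mesenchymal-like cells, and version 1 E12.5 168 in alpha-like cells. Fev-Cre E14.5 gave the lowest count at the early Fev step and at the comparisons of alpha-like and beta-like cells, and version 2 E14.5 at the late Fev step, where Fev-Cre E14.5 gave 827. Version 2 E17.5 gave 962 at the early Fev step and 727 for beta-like against alpha-like cells, where version 2 E14.5 gave 784.

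The stage differences that changed sign without 1 library, none of them called with all libraries, ran from −0.37 to 0.49 for *Vim* in ductal-like, −0.074 to 0.15 for *Epcam* in late Fev-like, −0.23 to 0.41 for *Cdh1*, −0.34 to 1.09 for *Cdh2* and −0.21 to 0.79 for *Ncam1* in alpha-like, and −1.10 to 0.26 for *Cdh2* in beta-like cells. In mesenchymal-like cells they ran from −0.30 to 0.77 for *Zeb1*, −5.47 (without version 2 E17.5, otherwise −1.39) to 0.60 for *Cdh1*, −0.82 to 0.51 for *Zeb2*, −1.80 (called, without version 1 E12.5) to 0.22 for *Ncam1* and −1.03 to 1.31 for *Epcam*. Co-detection ran from −1.79 to 9.67 points for *Epcam* and from 0.626 to 3.36 for *Cdh1*. The stage fit of Neurog3-high-like cells allowed no such refit, with 1 library at E12.5 and 1 at E17.5. Depth limited *Snai2*, *Zeb1* and *Zeb2* in the small endocrine classes, where 3 UMIs set the floor.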

Other observations

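Across 42 sums of UMIs per library and class over the 6 classes of the course, centred within library, some genes had profiles close to those of the members, by Pearson's r of log2(CPM + 10). The sums share libraries and depth, and r is given as a description. Closest to *Vim* were *Rassf7* (0.856), *Csrp2* (0.848) and *Hmga2* (0.842). Among the closest to *Cdh1* were *S100a11* (0.897) and *Dcps* (0.871). *Cdh2* was most like *Tmsb15b2* (0.911), *Resp18* (0.885) and *Tmem27* (0.881), and *Ncam1* most like *Ank* (0.964), *Zcchc18* (0.957) and *Rbp4* (0.950).

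Delta-like cells, a class that makes somatostatin, held *Epcam* at 640.0 to 996 CPM and *Cdh1* at 58.3 to 91.9 CPM in 4 libraries, and *Ncam1* at 64.8 to 147 CPM. Epsilon-like cells, which make ghrelin, held *Epcam* at 528 to 899 CPM, *Cdh1* at 33.8 to 96.7 CPM and *Ncam1* at 11.3 to 106 CPM. These classes entered no test.

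A kit by class term, fitted at each of the 9 comparisons of classes, called 0 of the 8 genes by edgeR's quasi-likelihood test. Over all genes it called 1 of 5771 at the late Fev step and 0 of 6261 to 11150 at the other comparisons. The 0 thus says nothing about the 8 genes in particular. At an unadjusted p under 0.05 there were 0 to 2 of the members tested in a comparison. The share of all genes at that p is not given here.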
